A study of Drosophila melanogaster with 24 samples.

Results

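The gap genes hunchback (hb), Krüppel (Kr), knirps (kni), knirps-like (knrl) and giant (gt) and the terminal genes tailless (tll) and huckebein (hkb) were followed in Drosophila melanogaster embryos by capped short RNA sequencing (csRNA-seq), which reads the 5′ ends of short capped RNAs and so maps transcription start sites (TSSs). The 7 genes were taken by name from the authors' table of 45839 merged TSSs, which names 13220 genes, and every one of their 73 TSSs was kept. For each gene the TSS with the highest mean value over all libraries is called its main TSS, and the others its secondary TSSs. Whole embryos came from 3 strains and 4 collection windows. The strains F3 and M6 carry the genotype tinmDPE, and the strain Cas9 carries tinWT. Each strain gave 1 csRNA library in each of the windows 0-2, 2-4, 4-6 and 6-8 h, 12 libraries in all. The labels name no other allele or agent and do not say whether a strain is 1 clone. Because tinWT is 1 strain, genotype and strain cannot be told apart. The 3 strains are the replicates of each window, so p-values of window comparisons measure the spread between strains and collections. Those of genotype comparisons hold no spread among tinWT strains.

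Gap genes encode transcription factors that divide the early embryo into broad domains along its anterior-posterior axis. Maternal gradients such as Bicoid start their transcription in the syncytial blastoderm, and mutual repression between the gap factors then sharpens the borders. The terminal genes act at both ends of the embryo, downstream of the receptor tyrosine kinase Torso. Most of the 7 genes are used again later: Kr in muscle, kidney tubules and nervous system, kni and knrl in the tracheal system, tll in the brain and hb in neuroblasts. The hb gene has a distal promoter, used in the ovary and again in the late blastoderm, and a proximal promoter that Bicoid activates in the anterior of the blastoderm.

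The sequences at the main TSSs are shown first, together with those at the second promoters of hb and kni, because these promoters differ in their exact matches to core elements and in their time courses. Each line holds the reference bases (RefSeq, Release 6, the dm6 assembly of the authors' table) from 40 bases upstream to 40 bases downstream of the most often called start, which is position +1. Capitals mark an initiator (TCAGT or TCATT with its A at +1), a TATA box (TATAA with its first base at -35 to -25) and a trimer of the downstream promoter element, DPE (GAC, GAT, GTC or GTT at +29 to +31).
hb distal promoter, chr3R:8697777-8697857, minus strand: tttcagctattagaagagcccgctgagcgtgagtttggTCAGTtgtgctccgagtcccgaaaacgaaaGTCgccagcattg
hb proximal promoter, chr3R:8694555-8694635, minus strand: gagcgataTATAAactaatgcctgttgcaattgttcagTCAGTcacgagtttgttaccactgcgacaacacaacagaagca
kni upstream promoter, chr3L:20695334-20695414, minus strand: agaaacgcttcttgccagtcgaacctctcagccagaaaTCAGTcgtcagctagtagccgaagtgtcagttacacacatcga
kni downstream promoter, chr3L:20694516-20694596, minus strand: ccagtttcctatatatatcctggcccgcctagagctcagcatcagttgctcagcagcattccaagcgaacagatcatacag
knrl, chr3L:20620613-20620693, minus strand: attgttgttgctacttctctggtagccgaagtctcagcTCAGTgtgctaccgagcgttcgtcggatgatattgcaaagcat
gt, chrX:2428923-2429003, minus strand: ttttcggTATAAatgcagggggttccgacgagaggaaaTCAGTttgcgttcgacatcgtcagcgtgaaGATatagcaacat
tll, chr3R:30852304-30852384, plus strand: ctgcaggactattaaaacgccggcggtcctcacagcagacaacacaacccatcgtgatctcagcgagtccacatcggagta
hkb, chr3R:4346602-4346682, minus strand: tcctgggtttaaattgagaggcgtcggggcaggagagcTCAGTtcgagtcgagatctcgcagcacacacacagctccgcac
No sequence is printed for Kr. The initiator was found at 6 of the 9 promoters, the exceptions being Kr, tll and the downstream promoter of kni, and at 16.2% of the 18094 promoter TSSs of the table. TATAA was found at the proximal promoter of hb, with its first base at -32, and at gt, with its first base at -33, against 5.67% of all promoter TSSs. Only exact words at the set positions were counted. The downstream promoter of kni holds tatatatat upstream of its start and TCAGT shortly after it, and was counted as having neither element. The DPE trimer was found at the distal promoter of hb and at gt, 2 of 9 promoters, against 16.2% of all. The initiator together with the DPE trimer was thus present at 2 of 9 promoters and at 5.53% of all promoter TSSs. The 9 promoters are TSSs on the strand of the gene near an annotated start, chosen from 22 TSSs of these genes annotated at promoters. The 18094 are all TSSs annotated at promoters, on either strand and however weak, so the shares come from unlike sets. These matches describe letters in a window and were not tested.

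The proximal promoter of hb is shown at greater length because it lies in the region through which Bicoid acts. In the following 300 bases, from 250 upstream to 50 downstream of the start, capitals mark TAATCC, the core of the Bicoid motif, and TACCTG, the reverse complement of CAGGTA, the motif of the early activator Zelda.
hb proximal promoter and upstream bases, chr3R:8694546-8694845, minus strand: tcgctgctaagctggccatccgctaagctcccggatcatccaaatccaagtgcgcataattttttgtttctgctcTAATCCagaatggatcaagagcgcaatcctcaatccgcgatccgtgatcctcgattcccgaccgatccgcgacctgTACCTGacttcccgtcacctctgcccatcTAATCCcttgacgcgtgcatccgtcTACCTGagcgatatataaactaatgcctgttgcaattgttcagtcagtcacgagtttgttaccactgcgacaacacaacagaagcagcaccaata
TAATCC began at -175 and -70, and CAGGTA, read on the other strand, lay at -99 and -45. Both strands of the same 300 bases were searched at all promoters. CAGGTA was found at 4 of the 9 promoters, namely those of Kr and gt, the proximal promoter of hb and the downstream promoter of kni, against 9.09% of all promoter TSSs. TAATCC was found at 2 of the 9, the proximal promoter of hb and the downstream promoter of kni, against 7.9% of all. Neither motif was found at the distal promoter of hb or the upstream promoter of kni. GAGAG, a motif of the GAGA factor, was found at 7 of the 9, all but these same second promoters of hb and kni, against 39.6% of all. Here too the 9 promoters and all promoter TSSs are unlike sets.

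Values are the authors' regularised log (rlog) values, on a log2 scale on which weak TSSs are shrunk towards their own mean, so that changes of weak TSSs are understated. The libraries held 2632187 to 10553406 tags. The main TSS of tin, the gene named by the genotype, had rlog values of 4.66 to 7.12 in the 8 tinmDPE libraries and 5.48 to 7.61 in the 4 tinWT libraries, with F3 and M6 below Cas9 in each window. Of 5 maternal RNA markers (exu, BicC, osk, nos, bcd), 4 were lower at 2-4 h than at 0-2 h and none was higher, with a median change of -3.0. Of 5 cellularization genes (nullo, Sry-alpha, bnk, slam, halo), 3 rose at 2-4 h against 0-2 h and all 5 fell at 4-6 h against 2-4 h, with a median change of -3.62. Of 5 markers of later embryos, 3 (elav, repo, svp) rose at 6-8 h against 0-2 h. The others, Mef2 (0.08) and btl (-0.23), were not called. Of 5 genes of larval or adult tissue, 1 (Yp2) had a TSS in the table, and it stayed at or below -0.36 in all libraries.

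Between 0-2 and 2-4 h, 5 of the 7 main TSSs changed in the limma fit over all TSSs (adjusted p under 0.05), against 11.4% of the main TSSs of all genes. Kr, kni, knrl and hkb rose, and the distal promoter of hb fell. The share that rose was 4 of 7 among these genes and 4.92% among all genes, and the share that fell was 1 of 7 and 6.47%. The median change of the 7 was 1.01 on the rlog scale, against -0.13 over the main TSSs of all genes and 0.09 over all TSSs. All 73 TSSs of the genes together gave 10 calls, against 6.67% of all TSSs. Of these 10, 4 (the main TSS of hkb, 2 antisense TSSs of knrl and 1 of tll) were called as TSSs by the authors in no 0-2 h library and so entered the table through later windows. The change of hkb is thus a description, although it is counted in the 5 of 7 and the 4 of 7. In whole embryos, more cells using a promoter and more RNA per cell cannot be told apart. Without any 1 strain none of the 7 passed the threshold, but neither did any of all 45839 TSSs. In those limma fits 5 or 6 of the 7 kept an unadjusted p under 0.05, but the share of all TSSs below it was not computed there. In the fit of all 12 libraries it was 23.5%, against 7 of 7 main TSSs. Without any 1 library 0 to 5 of the 7 passed, while the share of all TSSs that passed was 0.639% to 6.28%. Only the omission of M6 at 2-4 h (4 calls) or of tinWT at 4-6 h (5 calls) left the count within 1.5 times of 5. With the libraries centred on their medians, the median change of all TSSs shifted by -0.18 in this contrast, and 3 calls were left (hb, Kr and hkb).

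**Figure D1:**
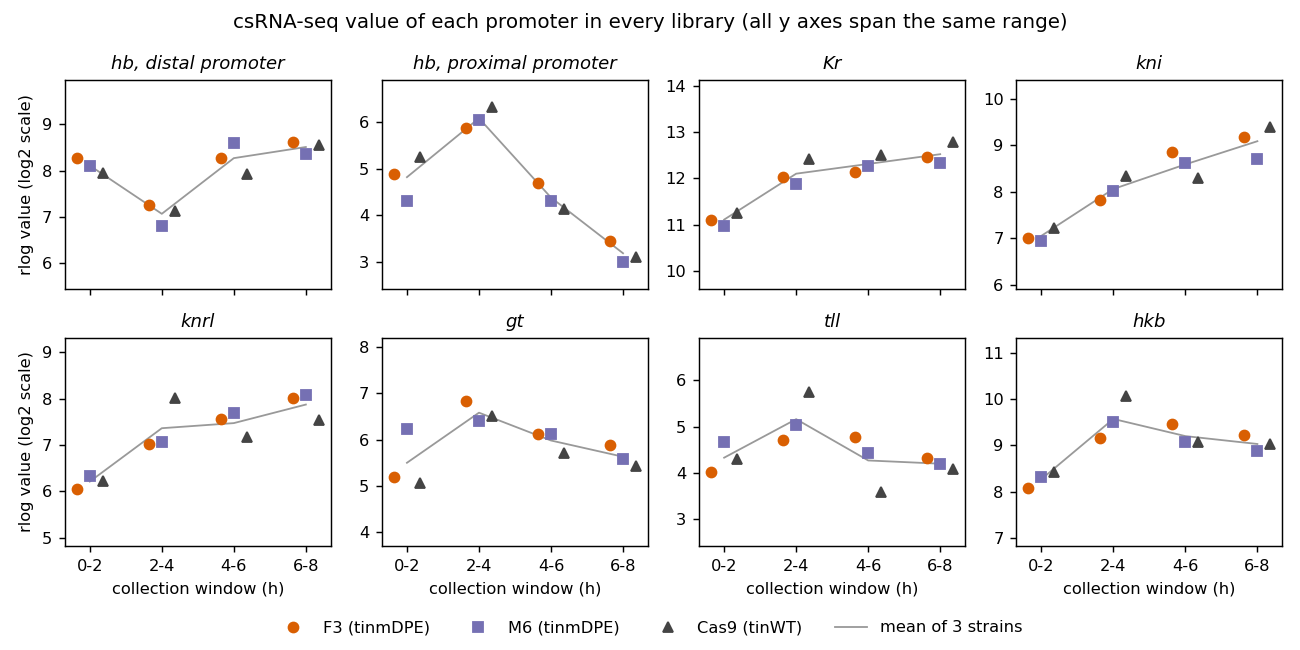
rlog value (log2 scale, y axis) of the main TSS of each gene and of the proximal promoter of hb in each library, by collection window (x axis), with F3, M6 and Cas9 as points and their mean as a line. The distal promoter of hb is lowest at 2-4 h, where its proximal promoter is highest, Kr and kni are highest at 6-8 h, and gt, tll and hkb have their highest mean at 2-4 h.

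The distal promoter of hb, which encodes a zinc finger factor of the anterior and posterior domains, lies at chr3R:8697742-8697892 on the minus strand, and its start was called in all 12 libraries, 5 bases inside the annotated 5′ UTR. Its rlog value at 0-2 h was 8.28 in F3, 8.10 in M6 and 7.94 in Cas9. At 2-4 h it was 7.26, 6.80 and 7.14 in the same strains. In the 4-6 h embryos the strains gave 8.28, 8.60 and 7.92, and in the 6-8 h embryos 8.62, 8.35 and 8.55. All 3 libraries of 2-4 h lay below all 9 libraries of the other windows. The value fell by 1.04 ± 0.27 (SE; adjusted p = 0.0306, lower in 3 of 3 strains) at 2-4 h against 0-2 h and rose by 1.20 ± 0.27 (adjusted p = 0.0277, higher in 3 of 3 strains) at 4-6 h against 2-4 h. It was the single main TSS of the 7 that changed between 2-4 and 4-6 h, against 3.13% of the main TSSs of all genes. Under quantile normalization the fall was not called (adjusted p = 0.0768). Leaving out a single library ended the call of the fall for each library except M6 and Cas9 at 4-6 h (adjusted p up to 0.125), and that of the rise for each library except M6 and Cas9 at 0-2 h and Cas9 at 2-4 h (adjusted p up to 0.189).

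The proximal promoter of hb lies 3222 bases downstream of the distal one, at chr3R:8694520-8694674 on the minus strand, also 5 bases inside its annotated 5′ UTR, and was called in 6 of the 12 libraries, none of them of 6-8 h. The 0-2 h rlog value was 4.89 in F3, 4.31 in M6 and 5.25 in Cas9. The 2-4 h embryos had 5.89, 6.05 and 6.34. The 4-6 h values were 4.70, 4.30 and 4.14, and those of 6-8 h were 3.44, 3.0 and 3.09. The 2-4 h libraries were the highest and the 6-8 h libraries the lowest, with no overlap with any other window. The promoter rose by 1.27 ± 0.33 (SE; adjusted p = 0.0315) at 2-4 h against 0-2 h and fell by 1.71 ± 0.33 (adjusted p = 0.0118) at 4-6 h against 2-4 h. At 6-8 h against 0-2 h the difference was -1.64 ± 0.33, which passed the threshold. This promoter had no authors' call at 6-8 h, so that difference is a description and no test. Each of these changes had the same direction in 3 of 3 strains. Without any 1 strain the first 2 changes were not called (adjusted p up to 0.27 for the rise and 0.365 for the fall). The rise was also lost after centring (adjusted p = 0.0625) and without each single library except Cas9 at 0-2 h and at 4-6 h, and the fall without F3 or M6 at 2-4 h or any library of 4-6 h. The change to 6-8 h was lost without F3 (adjusted p = 0.0955), where none of all 45839 TSSs passed in that contrast.

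The balance of the hb promoters followed a course of its own. The proximal minus the distal rlog value averaged -3.29 ± 0.55 in the first window, -0.97 ± 0.34 in the second, -3.89 ± 0.37 in the third and -5.33 ± 0.14 in the last (SD, 3 strains). The proximal promoter thus came nearest to the distal one at 2-4 h in all 3 strains and never passed it. The windows were permuted within each strain in all 13824 orders (exact permutation test of the differences between window means), with p = 0.00174, the smallest that these orders allow, and an adjusted p of 0.00347 over 2 genes. This test, and the same one for kni, were chosen after the values had been seen. The proximal promoter had no authors' call at 6-8 h, so the difference in that window is a description. The p-value includes that window and is therefore a description as well, not a test of the course. Without any 1 strain the p-value was 0.0417, the smallest that 2 strains allow. Over the 12 libraries the 2 promoters of hb had a Pearson r of -0.85, a description of points that share windows and library depth.

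**Figure D2:**
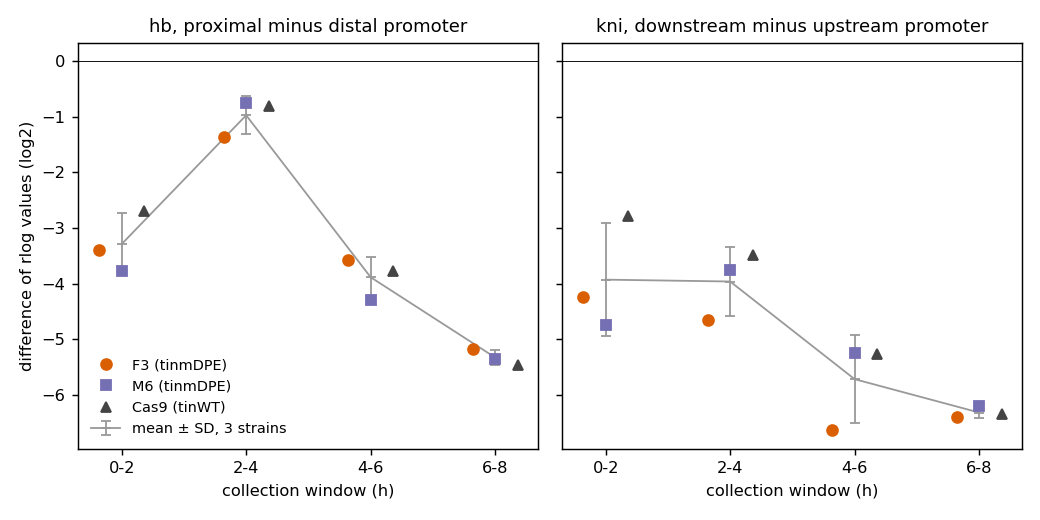
Difference of rlog values (log2, y axis) between the second and the first promoter of hb and kni in each library by window (x axis), with the mean ± SD of the 3 strains in grey. For hb the mean goes through -3.29, -0.97, -3.89 and -5.33 over the 4 windows, and for kni through -3.93, -3.96, -5.72 and -6.32.

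Kr, a zinc finger repressor of the central embryo, had the highest main TSS of the 7 genes, at chr2R:25226540-25226690 on the plus strand, inside an intron of CG9380 on the other strand. Its rlog value at 0-2 h was 11.11 in F3, 10.97 in M6 and 11.25 in Cas9. At 2-4 h it was 12.02, 11.88 and 12.41. In the 4-6 h embryos the strains gave 12.14, 12.27 and 12.51, and in the 6-8 h embryos 12.46, 12.32 and 12.78. The 0-2 h libraries were the 3 lowest, and within each strain the value was higher in each later window. The rise at 2-4 h against 0-2 h was 0.99 ± 0.19 (SE; adjusted p = 0.00797, 3 of 3 strains), and at 6-8 h against 0-2 h it was 1.41 ± 0.19 (adjusted p = 8.18e-05, 3 of 3 strains). The later steps of 0.21 and 0.21 were not called, and both turned to -0.01 and -0.11 under quantile normalization. The rise at 2-4 h was lost without any 1 strain and without F3 at 0-2 h (adjusted p = 0.0517) or F3 at 2-4 h (adjusted p = 0.0525), and the rise to 6-8 h was lost without F3 (adjusted p = 0.0709). Without F3, however, none of all 45839 TSSs passed at 6-8 h against 0-2 h.

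kni, a nuclear receptor family repressor of the posterior trunk, had its main TSS at chr3L:20695299-20695449 on the minus strand and was called in all 12 libraries. The 0-2 h rlog value was 7.0 in F3, 6.94 in M6 and 7.22 in Cas9. The 2-4 h embryos had 7.82, 8.02 and 8.35. The 4-6 h values were 8.86, 8.63 and 8.29, and those of 6-8 h were 9.17, 8.70 and 9.39. The 0-2 h libraries were the 3 lowest and the 6-8 h libraries reached the highest mean, although 4-6 h overlapped both its neighbours. The value rose by 1.01 ± 0.28 (SE; adjusted p = 0.0393) at 2-4 h against 0-2 h and by 2.04 ± 0.28 (adjusted p = 0.000102) at 6-8 h against 0-2 h, in 3 of 3 strains each time. The rise at 2-4 h was not called after centring (adjusted p = 0.0818) or without any single library except Cas9 at 4-6 h, with adjusted p-values up to 0.151. The rise to 6-8 h was lost without F3 (adjusted p = 0.0707), where none of all 45839 TSSs passed in that contrast.

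knrl, the paralogue of kni on the same chromosome arm, had its main TSS at chr3L:20620478-20620728 on the minus strand, called in 11 libraries. Its rlog value at 0-2 h was 6.06 in F3, 6.34 in M6 and 6.22 in Cas9. At 2-4 h it was 7.01, 7.07 and 8.01. In the 4-6 h embryos the strains gave 7.56, 7.68 and 7.16, and in the 6-8 h embryos 8.01, 8.07 and 7.53. The 0-2 h libraries were the 3 lowest. From 2-4 h on, the windows overlapped, since Cas9 was the highest strain at 2-4 h and the lowest in the next 2 windows. The value rose by 1.15 ± 0.32 (SE; adjusted p = 0.0417) at 2-4 h against 0-2 h and by 1.66 ± 0.32 (adjusted p = 0.00166) at 6-8 h against 0-2 h. The first rise was not called after centring (adjusted p = 0.0678) or without any single library except M6 at 2-4 h and Cas9 at 4-6 h, with adjusted p-values up to 0.161, and without Cas9 at 2-4 h it was 0.73. The second was lost without F3 (adjusted p = 0.15) or M6 (adjusted p = 0.0623). In that contrast none of all 45839 TSSs passed without F3, and 7.57% passed without M6. Over the 12 libraries Kr and kni had a Pearson r of 0.92, Kr and knrl 0.87 and kni and knrl 0.88, values that share the window structure and the depth of the libraries.

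gt, a basic leucine zipper factor with an anterior and a posterior domain, had its main TSS at chrX:2428888-2429038 on the minus strand and was called in all 12 libraries. The 0-2 h rlog value was 5.20 in F3, 6.23 in M6 and 5.07 in Cas9. The 2-4 h embryos had 6.83, 6.41 and 6.50. The 4-6 h values were 6.12, 6.12 and 5.70, and those of 6-8 h were 5.89, 5.58 and 5.43. The 2-4 h libraries were the 3 highest, and M6 at 0-2 h lay about 1 unit above the other strains. The difference of 1.08 ± 0.32 (SE) at 2-4 h against 0-2 h had an adjusted p of 0.0556 and was not called, although it had the same sign in 3 of 3 strains. It passed the threshold without M6 at 0-2 h (adjusted p = 0.0177), without M6 at 2-4 h (adjusted p = 0.0499), under quantile normalization (adjusted p = 0.0308), with weak TSSs left out, those up to the 25th percentile of the mean (adjusted p = 0.0425), and without the variance trend (adjusted p = 0.0479). The difference at 6-8 h against 0-2 h was 0.13 ± 0.32.

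tll, an orphan nuclear receptor of the terminal regions and the brain, had the lowest main TSS of the 7, at chr3R:30852269-30852419 on the plus strand, called in 11 libraries at 29 bases downstream of the annotated start. Its rlog value at 0-2 h was 4.03 in F3, 4.66 in M6 and 4.30 in Cas9. At 2-4 h it was 4.71, 5.04 and 5.74. In the 4-6 h embryos the strains gave 4.78, 4.44 and 3.60, and in the 6-8 h embryos 4.33, 4.20 and 4.09. The windows overlapped, and Cas9 had both the highest and the lowest of the 12 values. The difference at 2-4 h against 0-2 h was 0.83 ± 0.38 (SE; adjusted p = 0.202), and at 4-6 h against 2-4 h it was -0.89 ± 0.38 (adjusted p = 0.295), so that tll passed the threshold in no window comparison.

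hkb, a zinc finger factor of both poles that limits the mesoderm and patterns the gut, had its main TSS at chr3R:4346567-4346717 on the minus strand. The authors called this TSS in 8 libraries, in none of the 0-2 h libraries and not in Cas9 at 4-6 h, while its rlog value was high in all of them. It was 8.09 in F3, 8.31 in M6 and 8.42 in Cas9 at 0-2 h. The 2-4 h embryos had 9.15, 9.50 and 10.06. The 4-6 h values were 9.46, 9.08 and 9.07, and those of 6-8 h were 9.22, 8.87 and 9.02. The 0-2 h libraries were the 3 lowest, and the 3 later windows overlapped. The value was higher by 1.30 ± 0.27 (SE; 3 of 3 strains) at 2-4 h than at 0-2 h and passed the threshold in limma (adjusted p = 0.0118). This TSS entered the table through later windows, so its differences from 0-2 h are descriptions and no test. The call was lost without any 1 strain and without F3 at 0-2 h (adjusted p = 0.0816) or Cas9 at 2-4 h (adjusted p = 0.0575). At 6-8 h against 0-2 h the difference of 0.76 ± 0.27 had an adjusted p of 0.0626, and it passed the threshold without Cas9 at 2-4 h (adjusted p = 0.0272) and with those weak TSSs left out (adjusted p = 0.0486).

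**Figure D3:**
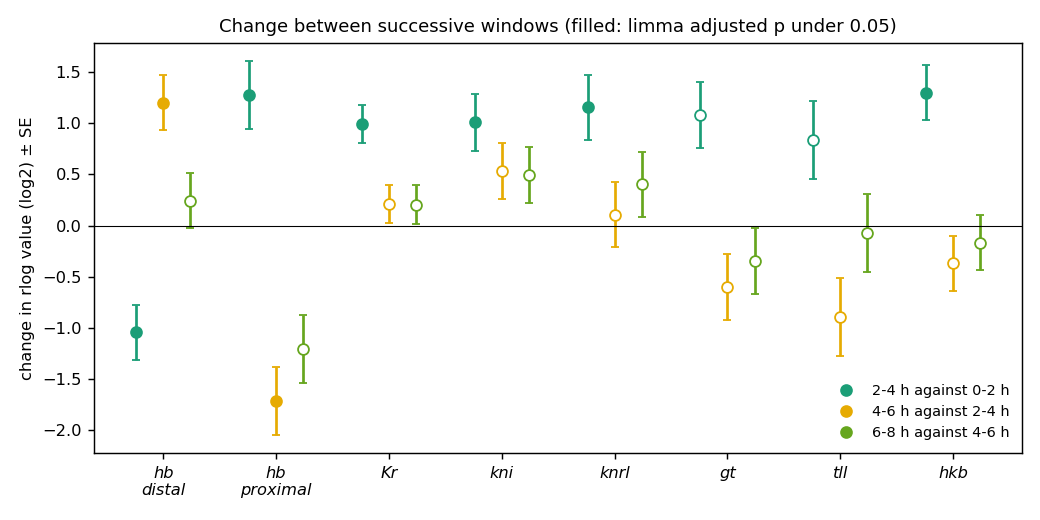
Change in rlog value (log2, y axis) ± SE between successive windows for each promoter (x axis), later minus earlier, with filled points for an adjusted p under 0.05. In the first step the proximal promoter of hb, Kr, kni, knrl and hkb are filled above 0 and the distal promoter of hb is filled below 0, and in the second step the filled points are the 2 promoters of hb.

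Over the whole course from 0-2 to 6-8 h, 3 of the 7 main TSSs (Kr, kni and knrl) were called and all rose, against 30.9% of the main TSSs of all genes called and 13.3% higher. Among all 73 TSSs the count was 10, against 17.4% of all TSSs, and 6 of the 10, all secondary, had no authors' call in the window where they were lower. At 4-6 h against 2-4 h it had been 4 of 73, 2 of them without an authors' call at 4-6 h, against 2.11%. No TSS of the 7 genes was called between 4-6 and 6-8 h by limma, against 0.513% of all TSSs. At an unadjusted p under 0.05 there were 5 of the 73, against 11.5% of all TSSs. Any change over the 4 windows was called for 5 main TSSs, all but gt and tll, against 33.4% of the main TSSs of all genes. The 5 include hkb, which had no authors' call at 0-2 h. Among all 73 TSSs it was 16, against 19.9%. The count of main TSSs was 0 without F3 or without M6, and 3 without Cas9 or without F3 at 0-2 h. The share of all TSSs called fell in these fits too. It was 0 without F3, 2.19% without M6, 4.83% without Cas9 and 12.1% without F3 at 0-2 h. A TSS value carries no transcript length, so levels can be set side by side. By mean rlog value the main TSSs ranked Kr, hkb, kni, hb, knrl, gt and tll, from 12.01 to 4.49. All 12 values of Kr lay above those of the other genes, and every pair of neighbours from hkb to tll overlapped in its values.

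The neighbouring tiers of the segmentation cascade were counted at their main TSSs in the same fits. Of 12 maternal and terminal system genes, 1 rose and 4 fell at 2-4 h against 0-2 h. The fallers were osk (-3.0), nos (-2.75), trk (-2.64) and tor (-1.56), of which tor encodes the receptor upstream of tll and hkb. The main TSS of trk was weak (mean 1.8) and annotated at a gene end, not at a promoter. The riser was the corepressor gene gro (0.95). At 4-6 h against 2-4 h 3 of the 12 fell, among them bcd, which encodes Bicoid and fell by 2.16 ± 0.43 (SE; adjusted p = 0.0143). Of 7 head gap genes, 2 rose at 2-4 h against 0-2 h, oc by 1.39 ± 0.29 and croc by 1.25 ± 0.24, and 1 of the 7, oc, fell by 1.75 ± 0.29 at 4-6 h against 2-4 h (adjusted p = 0.00502). Of 7 further genes, the pair-rule genes with Dichaete, 2 rose at 2-4 h against 0-2 h, eve by 1.10 ± 0.32 and odd by 1.06 ± 0.25. The median change of this list, 1.06, and that of the head gap genes, 1.01, stood beside 1.01 for the 7 gap and terminal genes.

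The 66 secondary TSSs were mostly weak. Of the 73 TSSs, 30 were called in 1 library and 41 had a mean at or below 0.72, the median of all TSSs. The authors' annotation placed 26 of the 73 between genes, 22 at promoters, 11 in introns and 11 in exons. Relative to the gene they are assigned to, 43 ran on the opposite strand. Of the 14 secondary TSSs with a mean above 2, 10 were antisense. The highest of these lay in hkb, 409 bases downstream of the annotated start in the coding sequence, with a mean of 5.28 and calls in 9 libraries. A second antisense TSS of hkb lay 337 bases upstream of the main TSS, with a mean of 4.05 and calls in 10 libraries, more than the main TSS had.

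**Figure D4:**
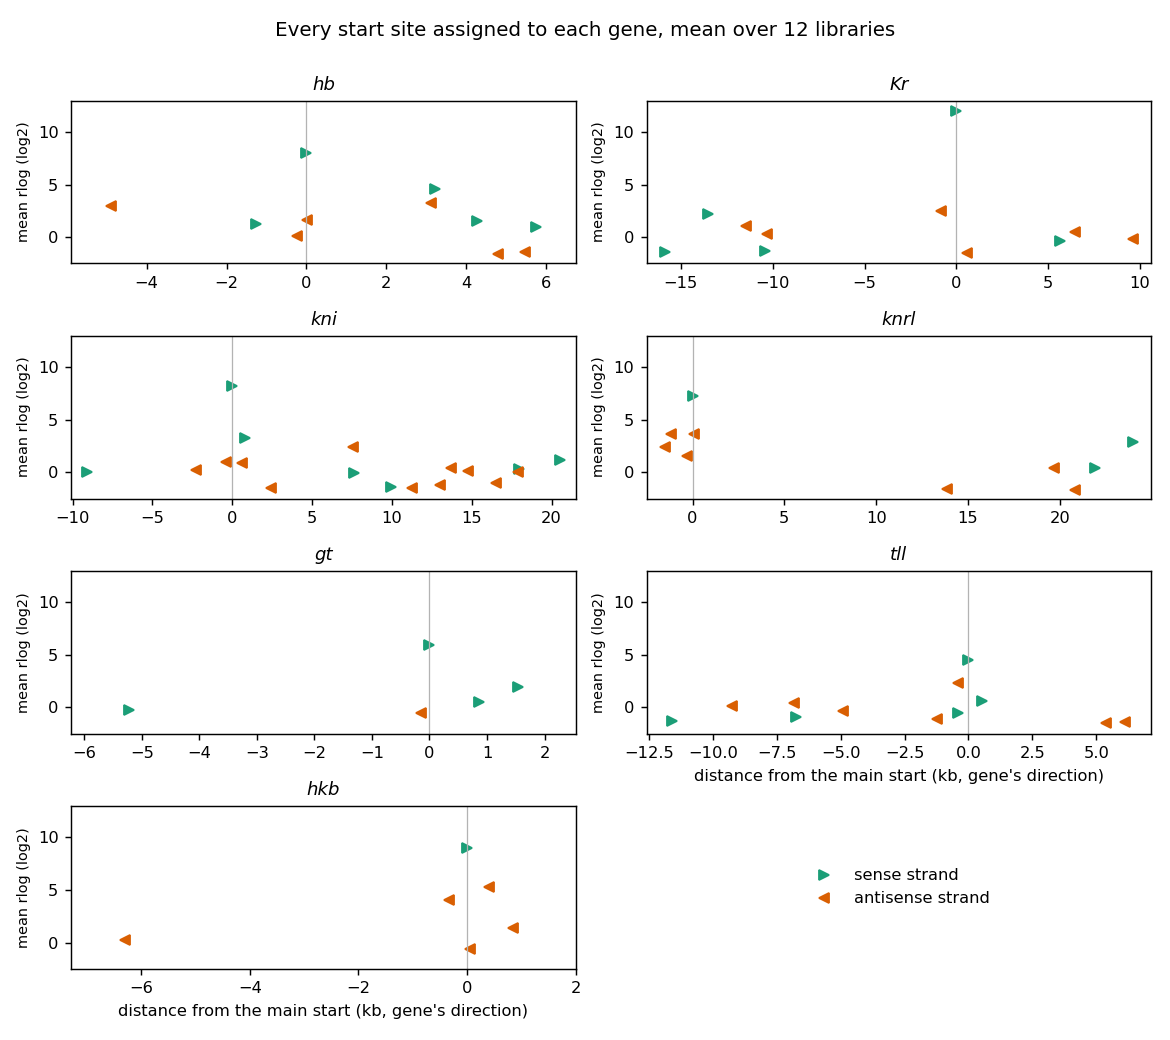
Mean rlog value over the 12 libraries (log2, y axis) of every TSS assigned to each gene against its distance from the main TSS in kb (x axis, positive downstream in the direction of the gene), with triangles pointing right for the strand of the gene and left for the opposite strand. Each gene has 1 sense TSS that stands above the rest, at 4.49 in tll to 12.01 in Kr, and 43 of the 73 TSSs are antisense.

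An antisense TSS 307 bases upstream of the main TSS of knrl had rlog values of 1.62 in F3, 1.90 in M6 and 1.69 in Cas9 at 0-2 h. At 2-4 h it had 3.04, 3.11 and 4.32. In the 4-6 h embryos the strains gave 0.40, 0.74 and 0.69, and in the 6-8 h embryos 0.41, 0.26 and 0.44. The 2-4 h libraries stood above all others, and those of the last 2 windows below all earlier ones. The authors called this TSS in the 3 libraries of 2-4 h and in no other, so it entered the table through the window in which it was high. Its differences of 1.75 ± 0.37 (SE) at 2-4 h against 0-2 h and -2.88 ± 0.37 at 4-6 h against 2-4 h are therefore given as a description, with no test. The sense promoter of knrl, called in 11 libraries, differed by 0.11 ± 0.32 in that second step.

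An intergenic antisense TSS 6818 bases upstream of tll was also highest at 2-4 h. Its rlog values at 0-2 h were 0.49 in F3, -0.10 in M6 and -0.08 in Cas9. At 2-4 h they were 2.00, 2.24 and 1.15. The 4-6 h values were -0.24, 0.10 and -0.08, and those of 6-8 h were -0.24, -0.31 and -0.22. The 2-4 h libraries stood above all others. It too was called in the 3 libraries of 2-4 h alone and is in the table through them, so the differences of 1.69 ± 0.35 (SE) at 2-4 h against 0-2 h and -1.87 ± 0.35 at 4-6 h against 2-4 h describe these libraries and are no test.

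An antisense TSS 4891 bases upstream of the distal promoter of hb took the other course. Its rlog values at 0-2 h were 2.10 in F3, 1.68 in M6 and 2.16 in Cas9. At 2-4 h they were 2.48, 2.22 and 3.10. In the 4-6 h embryos the strains gave 3.64, 3.42 and 3.08, and in the 6-8 h embryos 4.43, 4.17 and 3.37. All 0-2 h libraries lay below those of every later window, and the difference at 6-8 h against 0-2 h was 2.01 ± 0.38 (SE). This TSS was called in 8 libraries, none of them of 0-2 h, so this difference is a description as well. The other secondary TSSs past the threshold were 2 antisense TSSs of knrl at 2-4 h against 0-2 h, with differences of 1.56 and 1.31. At 6-8 h against 0-2 h they were an antisense TSS of Kr (1.28, on the strand of CG9380), a sense TSS 13.5 kb upstream of Kr (1.58), an antisense TSS of knrl (1.42) and an antisense TSS of kni (-1.11). The knrl antisense TSS at 307 bases was called in this contrast too, at -1.37. Of these, the knrl TSS with 1.31 and both Kr TSSs had no authors' call at 0-2 h, and the kni TSS had 1 authors' call, in F3 at 2-4 h.

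kni had a second promoter 818 bases downstream of the first, at chr3L:20694481-20694631 on the minus strand, at the annotated start of a second transcript. The authors called it in 3 libraries, Cas9 at 0-2 h and M6 and Cas9 at 2-4 h, so it entered the table through the first 2 windows. The 0-2 h rlog value was 2.75 in F3, 2.20 in M6 and 4.43 in Cas9. At 2-4 h it was 3.16, 4.27 and 4.87. The 4-6 h values were 2.22, 3.38 and 3.01, and those of 6-8 h were 2.77, 2.49 and 3.04. It was not called in any window comparison, and its windows overlapped. The second minus the first promoter averaged -3.93 ± 1.01 in the first window, -3.96 ± 0.62 in the second, -5.72 ± 0.79 in the third and -6.32 ± 0.10 in the last (SD, 3 strains; exact permutation test of windows within strains, p = 0.0174, adjusted p = 0.0174). The first 2 windows thus lay nearer to balance than the last 2 in each strain. Because the authors called this TSS in those first 2 windows alone, the p-value is no test of that difference. Without any 1 strain the p-value was 0.0833 to 0.167, where 0.0417 is the smallest that 2 strains allow.

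Between the genotypes, none of the 73 TSSs differed by limma, against 0.323% of all TSSs called. At an unadjusted p under 0.05 there were 8 of the 73, against 9.72% of all TSSs. This fit has no strain term and counts the libraries of a strain as independent. The median tinmDPE minus tinWT difference of the main TSSs was -0.004, against 0.03 over all genes. Kr came nearest among the main TSSs: both tinmDPE strains lay below tinWT in all 4 windows, as at 5.33% of the main TSSs of all genes, with a difference of -0.34 ± 0.13 (SE; unadjusted p = 0.0172, adjusted p = 0.365). The second promoter of kni was lower in 7 of the 8 tinmDPE libraries than in the Cas9 library of the same window, at -0.93 ± 0.33 (adjusted p = 0.328). The 2 promoters with an initiator and a DPE trimer, the distal promoter of hb and gt, gave 0.15 ± 0.19 (adjusted p = 0.873) and 0.37 ± 0.23 (adjusted p = 0.605). Between the 2 tinmDPE strains, F3 against M6, none of the 73 TSSs was called either (3 at an unadjusted p under 0.05, against 3.78% of all TSSs), and 0.00218% of all TSSs were.

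The sign of the genotype difference turned between windows for several genes. At 2-4 h both tinmDPE strains lay below tinWT at 5 of the 7 main TSSs (Kr, kni, knrl, tll and hkb), against 41.1% of the main TSSs of all genes, and above it at none. At 4-6 h both lay above tinWT at 6 of 7, all but Kr, against 33.9% of all genes. The tinmDPE mean minus tinWT for knrl was -0.97 at 2-4 h and 0.46 at 4-6 h, and for tll it was -0.86 at 2-4 h and 1.01 at 4-6 h. Because tinWT has 1 library per window, the spread in the following test comes from F3 against M6 alone. The test for a genotype difference that changes over the windows called none of the 7 main TSSs by limma, against 2.54% of the main TSSs of all genes. At an unadjusted p under 0.05 this test had 1 of the 7 (knrl, adjusted p = 0.0966), against 16.5% of all TSSs. Under quantile normalization it called knrl (adjusted p = 0.0444), and under the other settings knrl had an adjusted p of 0.18 to 0.321. Among all 73 TSSs it called 3 weak secondary ones, against 4.95% of all TSSs. These counts depend on the settings: of all TSSs it called 2268, but 2 after centring, 2 without the variance trend and 5 of the 34379 above the 25th percentile of mean value. The stage markers moved between the strains in the same windows. The mean rlog value of the 5 cellularization genes at 2-4 h was 8.30 in F3 and 8.70 in M6, against 8.85 in Cas9, and at 4-6 h it was 5.74 and 5.60, against 4.88. The mean of the 5 maternal RNA markers at 2-4 h was 5.24 and 5.06, against 3.89 in Cas9. The mean of 5 markers of later embryos (Mef2, elav, repo, svp, btl) at 4-6 h was 8.12 in F3 and 8.18 in M6, against 7.35 in Cas9. Both tinmDPE strains lay above Cas9 at Mef2, elav, repo and svp in that window. For btl the values were 4.74 in F3, 4.87 in M6 and 4.76 in Cas9, and Mef2 and btl did not rise over the course. The part of these markers in the differences was not tested.

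**Figure D5:**
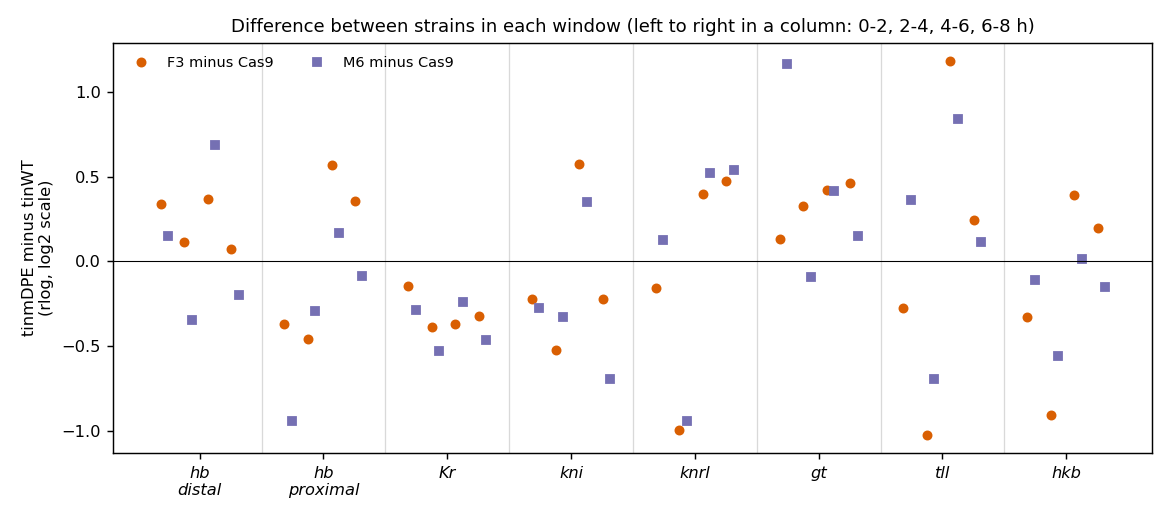
rlog value of F3 and of M6 minus that of Cas9 (log2, y axis) in each window for each promoter (x axis), the windows running from 0-2 to 6-8 h within a column. All 8 points of Kr lie below 0, and at tll both points are below 0 at 2-4 h and above 0 at 4-6 h, with means of -0.86 and 1.01.

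Finally, the genes with the most similar course were looked up among 8932 genes by the Pearson r of their main promoter TSS over the 12 libraries. Kr was most like Doc1 (0.988), a T-box gene of the amnioserosa and dorsal ectoderm, then CG17224 and Mhcl. kni was most like the laminin gene LanB2 (0.98), then CG12547 and the homeobox gene HGTX. knrl was most like the pair-rule gene h (0.985), then dpn and rib. The distal promoter of hb was most like CG3815 (0.948), then CG11417 and CG5721, while its proximal promoter was most like Neu2 (0.973), tex and the head gap gene oc (0.966). gt was most like Ptx1 (0.933), then Svil and Tbh, tll most like Vajk1 (0.912), then CG4702 and Wdr81, and hkb most like Sgf29 (0.94), then Dysb and Ero1L. These values describe 12 libraries that share 4 windows and 3 strains.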

How the data were processed

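The authors deposited 1 table of TSSs merged over the 12 csRNA libraries, with log2 values per library made by HOMER's regularised log option on strand-specific tags, per the file headers, and a table of the TSS positions called in each library with a score. STAR 2.7.10a, HOMER, edgeR and the dm6 build are named in the submitters' processing notes. Input libraries and tag counts were not analysed here. The deposited log2 values of all 45839 TSSs were fitted with limma 3.58.1 in R 4.3.3 (variance prior with trend, no filter), with Benjamini-Hochberg adjustment over all TSSs and a threshold of 0.05. Window contrasts had the strain as replicate block, because each strain gave 1 library in each window. The mean correlation of deviations was 0.0643 within F3, 0.0669 within M6 and 0.154 within Cas9, against -0.0475 between strains. The genotype fit had the window as covariate, and its change over windows came from group means. The fits and the permutation test were tested on simulated data. Precision is limited by the number of libraries.

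The genes, lists and tests were chosen with earlier results of these data known. The text names every main TSS, other TSSs by their value, the 3 genes most like each by Pearson r among genes at or above the median of all TSSs, and up to 6 called genes per list. The alternatives were quantile normalization, centring, a filter at the 25th percentile, no trend, the mean of all promoter TSSs of a gene, no block or a correlated block, and leaving out libraries, strains or windows.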

Additional observations from a re-analysis of the deposited data

Results flagged for a closer look

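A genotype difference that varied with the window was called at 3 secondary TSSs (limma F test of the interaction, Benjamini-Hochberg adjusted): 2 antisense TSSs in the coding sequence of hb with adjusted p-values of 0.0145 and 0.0157, and 1 antisense TSS in the coding sequence of knrl with an adjusted p of 0.0335. The authors called each of them in 1 library, Cas9 at 2-4 h, and so each is in the table through the library in which it is highest. The adjusted p-values were 0.197, 0.279 and 0.586 after centring and 0.166, 0.187 and 0.354 without the variance trend, and all 3 TSSs lie below the 25th percentile of mean value. The first hb TSS had values of -1.52 in both F3 and M6 at 2-4 h, against -0.13 in Cas9, and at most -1.42 in all other libraries. The second had -1.72 in both F3 and M6 at 2-4 h, against -0.76 in Cas9. The knrl TSS had -1.79 in F3 and M6 at 2-4 h, against -1.18 in Cas9. Their means lie below the median of all TSSs, 0.72. No group had 4 or more libraries, so no library was tested as an outlier within its group.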

How the results depend on the processing

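Of 1097 recalculated values for single TSSs, 851 kept their direction and their side of the threshold, 201 kept their direction and lost the call, 8 gained it and 37 changed sign. The calls between neighbouring windows depend on all 3 strains: without 1 strain or library, 0 to 5 main TSSs were called at 2-4 h against 0-2 h, 0 to 1 at 4-6 h against 2-4 h, 0 to 4 at 6-8 h against 0-2 h and 0 to 6 for any change. Without 1 strain, at most 2 of all TSSs were called in the contrasts of neighbouring windows. Without F3, none of all TSSs was called at 6-8 h against 0-2 h or for any change. Without 1 library, 0.639% to 6.28% of all TSSs were called at 2-4 h against 0-2 h, against 6.67% with all libraries. Without the replicate block the counts stayed at 5, 1, 0, 3 and 5, and 1 call was lost, that of an antisense TSS of knrl (adjusted p = 0.0669 at 2-4 h against 0-2 h). With the strain as a correlated block 0 main TSSs differed between genotypes. Centring left 3 main TSSs at 2-4 h against 0-2 h. Replacing each main TSS by the mean of all promoter TSSs of its gene, which mixes strands and both hb promoters, left 1, 0 and 1 calls in the contrasts of 2-4 h with 0-2 h, 4-6 h with 2-4 h and 6-8 h with 0-2 h, and 2 for any change. It turned hb to 0.29, -0.23, -0.37 and -0.32 in the 4 window contrasts, kni to -0.10 and knrl to -0.97 at 4-6 h, knrl to -0.14 and tll to 0.19 in the contrasts of 6-8 h with 4-6 h and with 0-2 h, and the genotype differences of tll to -0.18 and hkb to 0.009. Quantile normalization turned Kr to -0.013 at 4-6 h and -0.11 at 6-8 h and called 1 main TSS for the changing genotype difference. Centring turned tll to 0.004 at 6-8 h and the genotype difference of knrl to 0.002. Without the window 2-4 h the genotype difference was 0.32 for knrl and 0.003 for hkb, and without 4-6 h it was -0.21 for tll. Without 1 strain, uncalled values that changed sign ranged from -0.15 to 0.58 (knrl, 4-6 h against 2-4 h), -0.35 to 0.123 and at 0.02 without M6 (tll, 6-8 h against 4-6 h), -0.15 to 0.52 (gt) and -0.34 to 0.041 (tll) at 6-8 h against 0-2 h, and -0.07 to 0.062 (knrl) between genotypes. Without 1 library they ranged, in the same contrasts, from -0.133 to 0.536 (knrl), -0.48 to 0.29 (tll) and -0.34 to 0.03 (hkb), -0.13 to 0.507 (gt) and -0.31 to 0.032 (tll), and, between genotypes, -0.17 to 0.32 (knrl), -0.21 to 0.41 (tll) and -0.31 to 0.003 (hkb). The cause of these changes was not tested.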
